A study of Bactrocera dorsalis with 16 samples.

Results

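Transcripts in the fat body of the oriental fruit fly, Bactrocera dorsalis, were compared in adult females between day 13 and day 5 after eclosion. The libraries were chosen by their labelled tissue and age, and they are 4 of the 16 in the series, 2 per age. The labels give the flies no genotype or treatment, and all were kept on an artificial diet of yeast extract and sugar. The rest of the series holds fat body at days 1 and 9 and ovary at days 1, 5, 9 and 13, again with 2 libraries each. The labels do not say how many flies went into a library, and the series design text calls the 2 libraries of a group biological replicates. Values below are FPKM, fragment counts scaled to transcript length and to library size, and pairs of values are replicate 1 and then replicate 2.

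The insect fat body is a diffuse tissue of the body cavity that combines the work of a liver with that of fat tissue. It stores lipid and glycogen, secretes most proteins of the hemolymph and makes antimicrobial peptides. In egg-laying females of many insects it also makes vitellogenins, the yolk precursors, which travel through the hemolymph and are taken up by growing oocytes; in higher flies the follicle cells of the ovary make yolk proteins as well. Fat body is dissected together with whatever adheres to it, such as epidermis with its cuticle, muscle and trachea.

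Of 10213 genes tested, 1594 (15.6%) changed between the ages at a Benjamini-Hochberg adjusted p under 0.05 in limma. At day 13, 528 genes (5.17%) were higher and 1066 (10.4%) were lower, and the median log2 change over all tested genes was -0.12. The change exceeded 2-fold for 324 of the higher and 631 of the lower genes, and it exceeded 8-fold, 3 on the log2 scale, for 22 and 123. The libraries of the 2 ages did not overlap for any called gene, nor for 62.9% of all genes tested. Separation of 2 libraries from 2 comes with a call, and where it is stated below it describes the values and adds no support.

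The split between higher and lower depended on the scaling. Summed FPKM was 348750 and 350908 at day 5 and 379709 and 388992 at day 13. Only 5 genes (MSTRG.10714, MSTRG.3414, MSTRG.3415, MSTRG.6582 and MSTRG.9806, all described below) held 1.24% and 1.41% of that sum at day 5 and 21.5% and 17.9% at day 13. With median-of-ratios scaling, which centres the median change at 0.03, 1088 genes were higher and 869 lower. Quantile normalization, with a median of 0.05, gave 819 and 750. All 528 higher genes stayed called after median-of-ratios scaling and 516 after quantile normalization, while 806 and 740 of the 1066 lower genes did. Counts also fell with fewer libraries: without day 5 replicate 1, day 5 replicate 2, day 13 replicate 1 and day 13 replicate 2 in turn, 907, 993, 1219 and 977 genes were called.

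**Figure D1:**
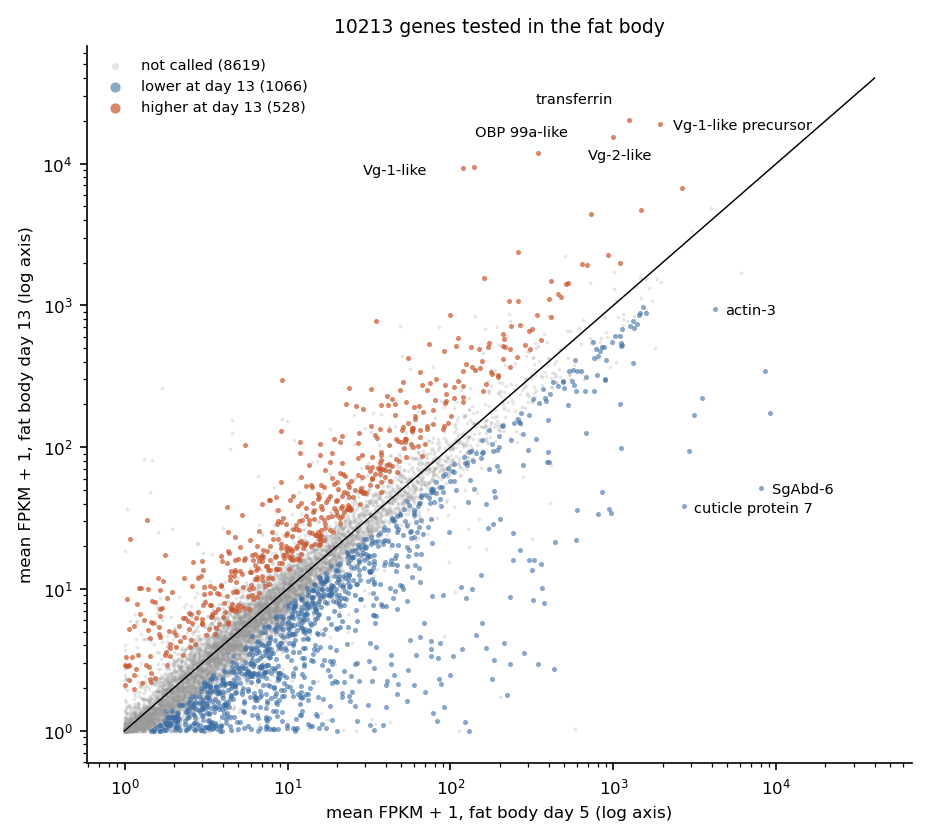
Mean level of each of the 10213 tested genes in fat body at day 5 (horizontal axis) and day 13 (vertical axis), both as FPKM plus 1 on log axes, with genes called higher or lower at day 13 in colour and the rest in grey. The 528 higher and 1066 lower genes lie on both sides of the diagonal, and the vitellogenins, transferrin and the odorant-binding protein 99a-like gene stand at the top of the day 13 axis.

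Yolk precursors were among the transcripts that gained most. Of 9 genes with a vitellogenin product name, all tested, 3 rose and none fell. Vitellogenin-1-like MSTRG.10714 read 144 and 92.2 FPKM at day 5 and 11289 and 7205 FPKM at day 13, a log2 change of 6.28 ± 0.34 (SE, n = 2 libraries per age; limma adjusted p = 2.36e-06). Vitellogenin-2-like MSTRG.3414 read 961 and 1014 FPKM at day 5 and 15518 and 15012 FPKM at day 13 (log2 change 3.95 ± 0.15, adjusted p = 5.83e-07). The vitellogenin-1-like precursor MSTRG.3415 went from 1719 and 2148 FPKM to 21513 and 16691 FPKM (3.30 ± 0.23, adjusted p = 7.86e-06). In all 3 genes each day 13 library stood several-fold above each day 5 library, and at day 13 these were among the highest values of the table.

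The other 6 vitellogenin-named genes did not pass the test, and at day 13 they were far below the 3 that rose. The highest of them, vitellogenin-1-like MSTRG.3980, read 173 and 155 FPKM at day 5 and 125 and 97.5 FPKM at day 13 (log2 change -0.57 ± 0.36, adjusted p = 0.347). Vitellogenin-1-like MSTRG.3974 read 61.1 and 49.9 FPKM and then 72.1 and 45.5 FPKM, with overlapping ages. Vitellogenin-3-like MSTRG.3977 stayed between 9.06 and 12.7 FPKM in the 4 libraries. The low genes MSTRG.3978 and MSTRG.3979 differed more between replicates than between ages, from 1.27 to 13.2 FPKM and from 0.414 to 3.79 FPKM. Vitellogenin-1-like MSTRG.10715 was listed at 0 in both day 5 libraries and read 6.13e-05 and 34.9 FPKM at day 13, so 1 library held its signal. Summed over the 9 genes, the level was 3072 and 3483 FPKM at day 5 and 48540 and 39100 FPKM at day 13.

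The ovary held the same 3 rising transcripts at lower levels. MSTRG.10714 read 32.01 and 21.8 FPKM in ovary at day 5 and 2939 and 1496 FPKM at day 13, and its change in the fat body minus that in the ovary was 0.02 ± 0.48 (adjusted p = 0.98). For MSTRG.3414 and MSTRG.3415 that difference was -0.41 ± 0.21 (adjusted p = 0.161) and 0.25 ± 0.32 (adjusted p = 0.584). A difference was not detected for these genes, which at this spread does not show that the tissues changed alike. Vitellogenin-1-like MSTRG.3980 behaved otherwise: in ovary it read 2373 and 2070 FPKM at day 5 and 13.2 and 18.7 FPKM at day 13, and the difference between the tissues' changes was 6.48 ± 0.51 (adjusted p = 1.31e-05). In the list, 4 of 9 genes had a more positive change in fat body than in ovary and none a more negative one, against 18.5% and 18.4% of all tested genes (36.9% in either direction).

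Transferrins rose with the yolk precursors. Transferrin MSTRG.6582, a secreted iron-binding protein of the hemolymph, read 1101 and 1388 FPKM at day 5 and 16617 and 23784 FPKM at day 13 (log2 change 4.01 ± 0.26, limma adjusted p = 4.83e-06). In ovary it went the other way, from 846 and 623 FPKM to 191 and 218 FPKM. A less abundant transferrin, MSTRG.4096, rose from 13.7 and 14.9 FPKM to 42.1 and 42.3 FPKM (1.5 ± 0.27, adjusted p = 0.00344). Of 7 tested genes of 8 matched to storage proteins and iron transport, 4 rose and none fell, against 5.17% and 10.4% of all tested genes. The median log2 change was 1.24. Larval serum protein 2 MSTRG.5581, an amino acid store best known from larvae, was among the 4 but remained low, at 0.0205 and 0 FPKM and then 1.52 and 2.29 FPKM. Larval serum protein 1 beta chain-like, gene 35186, also rose at a low level, from 0.121 and 0.152 FPKM to 2.11 and 0.796 FPKM (1.06 ± 0.26, adjusted p = 0.0208).

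Lipid carriers were less uniform. Apolipophorins MSTRG.506, the precursor of the lipophorin particle that carries lipid through the hemolymph, read 1051 and 1128 FPKM at day 5 and 1784 and 2212.5 FPKM at day 13 (log2 change 0.87 ± 0.24, adjusted p = 0.0355). Its libraries did not overlap, yet the call was lost without any 1 of the 4 fat body libraries, with log2 changes of 0.71 and more. The NPC2 homolog MSTRG.7826, of a family of sterol-binding proteins, rose in every setting tried and read 51.8 and 55.2 FPKM and then 372 and 473 FPKM (2.95 ± 0.16, adjusted p = 2.36e-06). Over lipid transport and breakdown, 3 of 49 tested genes rose and 4 fell, with a median log2 change of 0. Lipase member H-A MSTRG.5513 was 1 of the 3 that rose, at 15.5 and 14.8 FPKM and then 37.5 and 37.9 FPKM. Genes that fold and move secreted proteins mostly did not pass the test: of 56 tested secretory pathway genes, 1 rose and 1 fell, and their median log2 change was -0.14.

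Other secreted proteins changed in both directions. The gene named general odorant-binding protein 99a-like, MSTRG.9806, of a family of small carriers of hydrophobic molecules, read 390.1 and 293 FPKM at day 5 and 16666 and 6879.9 FPKM at day 13 (log2 change 4.98 ± 0.65, limma adjusted p = 0.000546). The day 13 libraries differed by over 2-fold from each other, and both were far above day 5. A gene with nearly the same name, general odorant-binding protein 99a MSTRG.10949, fell from 73.0 and 62.8 FPKM to 7.52 and 2.03 FPKM (-3.76 ± 0.39, adjusted p = 0.000112). The takeout family holds secreted proteins that bind small lipids. Takeout-like MSTRG.2374 read 19.4 and 15.9 FPKM and then 0.336 and 0.0480 FPKM, and takeout-like MSTRG.2372 read 37.98 and 48.4 FPKM and then 9.57 and 5.75 FPKM, and both fell. Of 27 tested odorant-binding, chemosensory and takeout genes, 2 rose, 6 fell and 19 did not pass the test.

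Protease inhibitors and serine proteases followed this mixed course. Chymotrypsin inhibitor-like MSTRG.4707 read 119.8 and 99.2 FPKM at day 5 and 544 and 639 FPKM at day 13 (log2 change 2.42 ± 0.21, adjusted p = 3.75e-05). Easter-like serine protease MSTRG.4311, named for a fly protease that acts in a cascade upstream of the Toll pathway, went from 57.0 and 57.1 FPKM to 122 and 136 FPKM (1.16 ± 0.18, adjusted p = 0.00173). Serpin B13 MSTRG.6413, of a family of protease inhibitors, went from 16.8 and 14.0 FPKM to 0.185 and 0.0623 FPKM (-3.86 ± 0.19, adjusted p = 1.86e-06). All 3 had ages that did not overlap. Of 74 tested serine proteases and serpins (117 matched), 10 rose and 3 fell, and leaving out the fat body libraries in turn, in the order used above, gave 4, 5, 10 and 6 that rose.

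Some lysosomal enzymes rose. Of 26 tested genes for autophagy and the lysosome, 6 rose, none fell and 20 did not pass the test, with a median log2 change of 0.22. Cysteine proteases and their inhibitors were a list added after values were seen, and 5 of its 9 tested genes rose and none fell, with a median log2 change of 2.23. Cathepsin L1 MSTRG.6453, a lysosomal cysteine protease, read 68.8 and 76.2 FPKM at day 5 and 534 and 527 FPKM at day 13 (2.86 ± 0.39, adjusted p = 0.000687). Cathepsin L1 MSTRG.6452 read 32.9 and 36.3 FPKM and then 145 and 86.3 FPKM (1.67 ± 0.31, adjusted p = 0.00457). Lysosomal aspartic protease MSTRG.8983 was more abundant, at 486 and 535 FPKM and then 1315 and 1519 FPKM (1.47 ± 0.15, adjusted p = 8.97e-05). The ages did not overlap in any of these.

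Inhibitors of cysteine proteases were among the genes that rose. Sarcocystatin-A-like MSTRG.5633, of the cystatin family, read 117 and 97.3 FPKM and then 396 and 642 FPKM (2.23 ± 0.29, adjusted p = 0.000451). A second sarcocystatin-A-like gene, MSTRG.9836, had the largest rise after the top vitellogenin among called genes with a product name, but from scattered values of 0.936 and 15.6 FPKM to 427 and 163 FPKM (5.55 ± 0.98, adjusted p = 0.00342). The gene named CTLA-2-alpha, MSTRG.1278, after a mouse protein like the inhibitory part of cathepsins, went from 0.913 and 0.647 FPKM to 15.2 and 17.6 FPKM. Lysosomal alpha-mannosidase MSTRG.10810, which trims sugars from glycoproteins, rose by 1.15 ± 0.13 on the log2 scale, and lysosome membrane protein 2 MSTRG.773 by 1.75 ± 0.19.

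Genes of amino acid metabolism changed in both directions, some genes of purine synthesis rose, and 1 gene of glucose synthesis rose. The enzyme 4-hydroxyphenylpyruvate dioxygenase MSTRG.4833, which acts in tyrosine breakdown, read 2.83 and 3.73 FPKM at day 5 and 28.4 and 45.9 FPKM at day 13 (log2 change 3.12 ± 0.28, limma adjusted p = 4e-05). Ornithine aminotransferase MSTRG.5227 read 117 and 104 FPKM and then 270.4 and 313 FPKM, and cytoplasmic aspartate aminotransferase MSTRG.6192 read 62.6 and 66.2 FPKM and then 135 and 128 FPKM. Neither gene's ages overlapped. Over the whole amino acid list, 5 of 38 tested genes rose and 4 fell, against 5.17% and 10.4% of all tested genes. The enzymes named above were among the 5 that rose. Log2 changes in the list ran from -1.44 to 3.12, with a median of -0.06. Phosphoenolpyruvate carboxykinase MSTRG.1223, which starts glucose synthesis from oxaloacetate, read 6.45 and 56.6 FPKM and then 204 and 310.1 FPKM (3.61 ± 0.78, adjusted p = 0.0107). Its call was lost without day 13 replicate 2, with a log2 change of 3.31. The limma fits to only the 8 fat body libraries (adjusted p = 0.0542) and to only the groups compared (adjusted p = 0.122) also lost it. Of 20 tested genes for glycolysis and glucose synthesis, it was the 1 that rose and 1 fell. That share of rises is near the 5.17% of all tested genes.

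Purine synthesis was a list added after values were seen. Of its 9 tested genes 3 rose and none fell, with a median log2 change of 0.94, and the count was 3 without each of the fat body libraries. The trifunctional purine biosynthetic protein MSTRG.5292 read 13.7 and 11.5 FPKM and then 77.5 and 70.7 FPKM (2.47 ± 0.18, adjusted p = 9.33e-06), and MSTRG.5291, with the same product name, read 2.25 and 1.80 FPKM and then 12.4 and 12.7 FPKM. Amidophosphoribosyltransferase MSTRG.5502, the committed step of the pathway, read 68.2 and 58.0 FPKM and then 197 and 190.0 FPKM (1.61 ± 0.25, adjusted p = 0.00138).

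Of 43 tested genes for glycogen, sugars and trehalose, the blood sugar of insects, 5 rose, 9 fell and 29 did not pass the test. Glycogen phosphorylase MSTRG.2622, which releases glucose units from glycogen, read 897 and 901 FPKM at day 5 and 446 and 376 FPKM at day 13 (log2 change -1.13 ± 0.15, limma adjusted p = 0.000489). Glycogenin-1 MSTRG.1144, which primes new glycogen, fell from 189 and 194 FPKM to 80.6 and 64.3 FPKM. Glycogen debranching enzyme MSTRG.3354 fell from 39.6 and 43.2 FPKM to 15.3 and 12.8 FPKM. These last 2 genes were chosen after their values were seen. Trehalose-phosphate synthase MSTRG.7927, which makes trehalose, read 1109.8 and 1131.5 FPKM and then 571 and 485 FPKM (-1.09 ± 0.22, adjusted p = 0.00728), and its call was lost without day 13 replicate 2 (-0.97, adjusted p = 0.0604).

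Trehalose transporters divided. The Tret1 gene MSTRG.5601 rose from 118 and 147 FPKM to 462 and 545 FPKM, by 1.92 ± 0.27 on the log2 scale. Tret1 gene MSTRG.6289 changed by -1.91 ± 0.27, from 19.3 and 18.3 FPKM to 4.74 and 3.83 FPKM. The median log2 change of the sugar list was -0.42, and without the fat body libraries in turn 6, 6, 7 and 8 fell.

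Of 43 tested genes for fatty acid and lipid synthesis, 1 rose, 9 fell and 33 did not pass the test, with a median log2 change of -0.39. Fatty acid synthase MSTRG.749 read 369 and 390 FPKM at day 5 and 240.1 and 202 FPKM at day 13 (-0.78 ± 0.19, limma adjusted p = 0.02), and acetyl-CoA carboxylase MSTRG.8122, which makes its substrate, read 186 and 169 FPKM and then 110.3 and 99.1 FPKM (-0.76 ± 0.20, adjusted p = 0.0263). NADP-dependent malic enzyme MSTRG.2357, a source of reducing power, read 252 and 263 FPKM and then 163 and 151 FPKM. These calls were among the least stable: without the fat body libraries in turn 2, 3, 6 and 2 genes of the list fell, and median-of-ratios scaling gave 7 that rose and 5 that fell.

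Fatty acyl-CoA reductases, which make the fatty alcohols of waxes, were a list added after values were seen, and 7 of 12 tested genes fell while none rose. Among them MSTRG.3189 read 10.3 and 11.1 FPKM and then 2.69 and 2.56 FPKM, MSTRG.558 read 21.7 and 19.0 FPKM and then 7.77 and 7.50 FPKM, and MSTRG.5671 read 2.57 and 2.01 FPKM and then 0.435 and 0.203 FPKM. The ages did not overlap in these 3. Without the fat body libraries in turn, 4, 5, 5 and 5 fell.

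Detoxification and antioxidant genes gave more rises than falls. Of 61 tested cytochrome P450s (79 matched), monooxygenases many of which act on foreign compounds, 13 rose and 2 fell, while the median log2 change was -0.02, close to that of all genes. P450 6g1-like MSTRG.147, named for a fly gene linked to insecticide resistance, read 20.4 and 19.4 FPKM at day 5 and 137 and 79.3 FPKM at day 13 (2.33 ± 0.22, limma adjusted p = 5e-05). P450 309a1 MSTRG.2249 read 8.78 and 7.46 FPKM and then 39.4 and 73.0 FPKM, and P450 6a9-like MSTRG.9154 read 14.1 and 12.9 FPKM and then 30.4 and 30.2 FPKM. P450 311a1 MSTRG.10611 rose from a low level, 0.544 and 0.380 FPKM, to 3.47 and 6.23 FPKM. P450 4e1 MSTRG.7424 fell, from 12.9 and 8.96 FPKM to 0.619 and 0.924 FPKM (-2.74 ± 0.32, adjusted p = 0.000232). Without the fat body libraries in turn, 7, 11, 9 and 9 P450s rose.

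Esterases and antioxidant enzymes were smaller lists of the same kind. Venom carboxylesterase-6 MSTRG.1030 had the largest change among them, from 169 and 149.96 FPKM to 1205 and 1894 FPKM (3.24 ± 0.33, adjusted p = 8.51e-05). In all, 5 of 21 tested esterases rose and 2 fell, and 2, 3, 3 and 3 rose without the fat body libraries in turn. Peroxiredoxins remove peroxides: the 6-like genes MSTRG.8360 and MSTRG.8359 read 43.5 and 42.5 FPKM and 44.97 and 44.6 FPKM at day 5, and 275 and 158 FPKM and 255 and 145 FPKM at day 13. Cu-Zn superoxide dismutase MSTRG.1822 rose from 47.7 and 50.04 FPKM to 96.2 and 119 FPKM. Together, 4 of 20 tested antioxidant genes rose and 1 fell. Genes that share a product name, such as these peroxiredoxins or the cathepsins, may share reads, and how such reads were divided is not given in the sources used here.

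**Figure D2:**
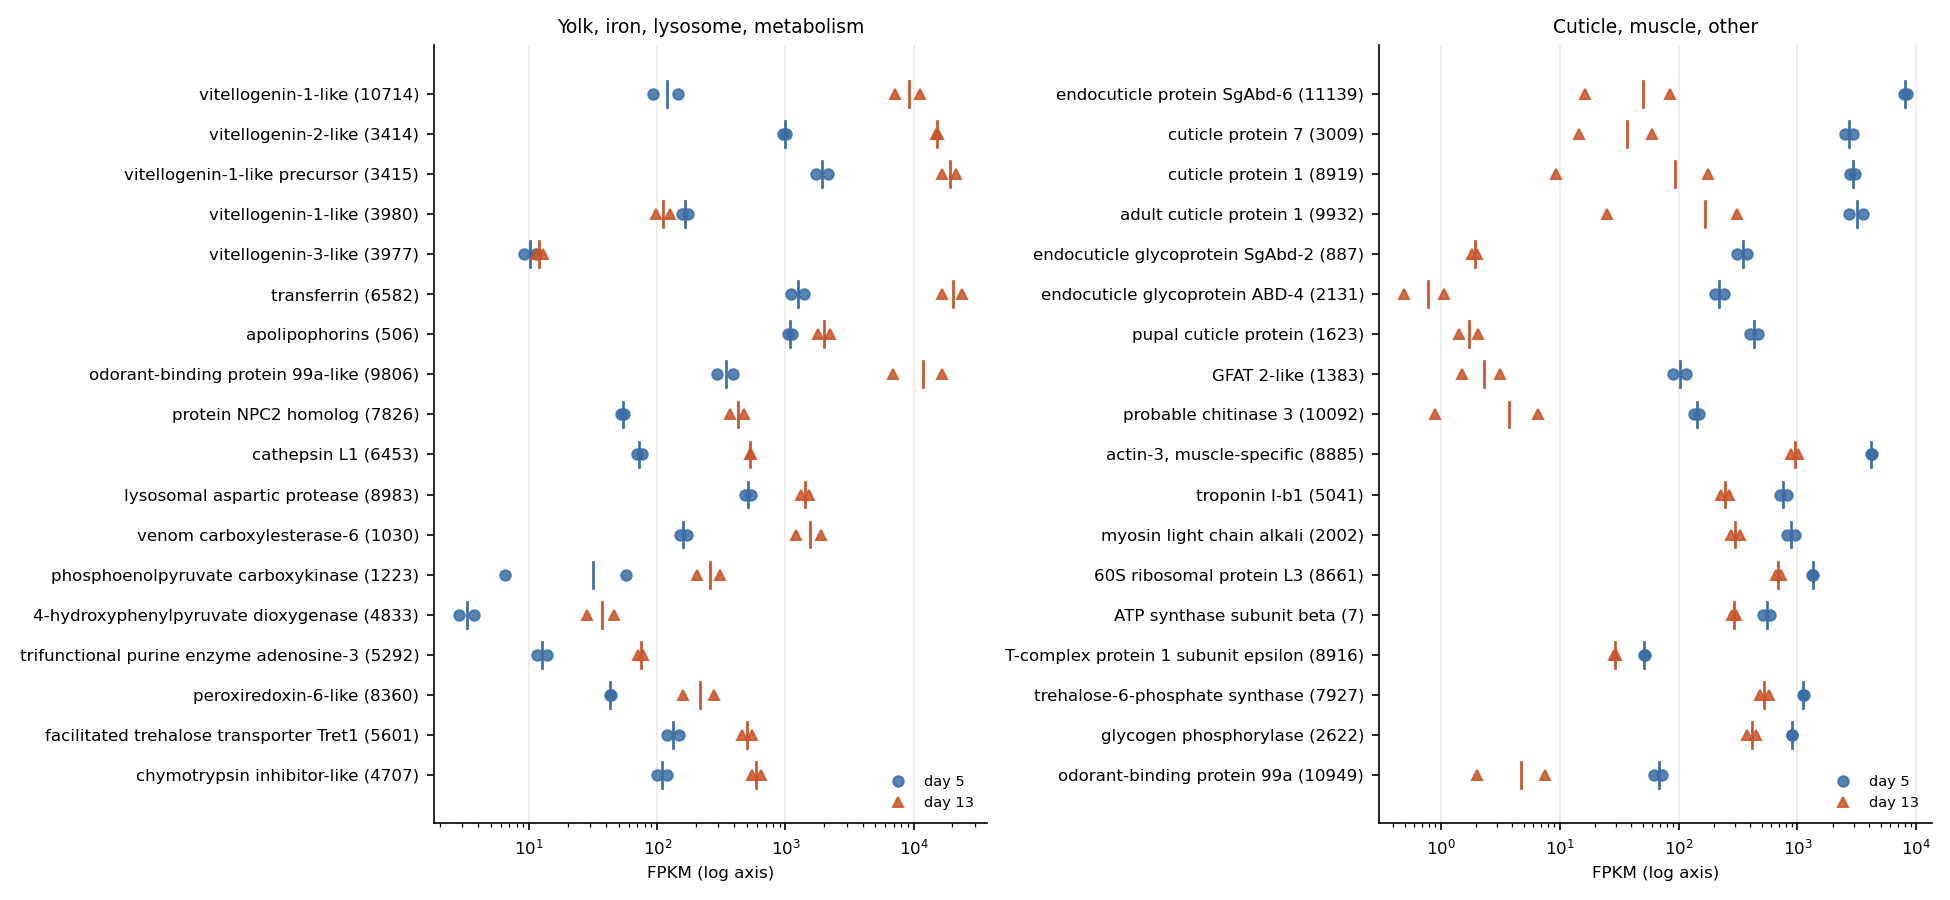
FPKM on a log axis in each fat body library for 18 genes of yolk, iron, lysosome and metabolism (left) and 18 others (right). Circles mark the 2 day 5 libraries, triangles the 2 day 13 libraries and bars the means. Genes on the right were lower at day 13. Those on the left were higher, except vitellogenin-3-like MSTRG.3977 and vitellogenin-1-like MSTRG.3980, which were not called. The circles and triangles overlap only for MSTRG.3977, and MSTRG.3980 was lower at day 13. Vitellogenin-1-like MSTRG.10714 stands at 144 and 92.2 FPKM against 11289 and 7205 FPKM. Endocuticle protein MSTRG.11139 stands at 8304 and 7850 FPKM against 84.8 and 16.4 FPKM.

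Cuticle proteins, the structural proteins of the exoskeleton, gave the largest falls. Of 39 tested cuticle and chitin genes (74 matched), 19 fell and 2 rose, with a median log2 change of -1.54, and 17 to 18 fell without any 1 of the fat body libraries. Endocuticle structural protein SgAbd-6 MSTRG.11139 read 8304 and 7850 FPKM at day 5, which put it among the most abundant transcripts, and 84.8 and 16.4 FPKM at day 13 (-7.71 ± 0.71, limma adjusted p = 5.15e-05). Cuticle protein 7 MSTRG.3009 went from 2912 and 2496 FPKM to 59.9 and 14.5 FPKM (-6.45 ± 0.49, adjusted p = 1.46e-05). Cuticle protein 1 MSTRG.8919 went from 3040.0 and 2770.1 FPKM to 178 and 9.33 FPKM (-6.08 ± 1.01, adjusted p = 0.00245). In each of these, day 13 replicate 1 kept several times the level of replicate 2, and both were far below day 5.

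The same order held in adult cuticle protein 1 MSTRG.9932, at 3564 and 2718 FPKM and then 309 and 25.2 FPKM. Other cuticle genes were near the bottom of the scale in both day 13 libraries. Pupal cuticle protein MSTRG.1623 went from 469 and 396 FPKM to 2.06 and 1.43 FPKM, and endocuticle structural glycoprotein SgAbd-2 MSTRG.887 from 378 and 313 FPKM to 1.85 and 2.02 FPKM. Cuticle proteins 8 and 16.5, MSTRG.3006 and MSTRG.6578, fell from between 24.1 and 43.9 FPKM to between 0.0342 and 0.154 FPKM. The log2 change was -5.98 for pupal cuticle protein G1A-like MSTRG.4912, -6.97 and -4.21 for endocuticle glycoproteins ABD-4 MSTRG.2131 and SgAbd-9 MSTRG.2543, and -4.33 for pro-resilin MSTRG.4695, an elastic cuticle protein. Endocuticle proteins were added as a list of their own after values were seen, and 6 of 10 tested fell, at least 6 without each of the fat body libraries.

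Among genes of chitin metabolism 3 are described, of which MSTRG.1383 and MSTRG.10092 were chosen after their values were seen. Glutamine--fructose-6-phosphate aminotransferase, which begins the route to the sugar units of chitin, is listed as 2 genes, MSTRG.1383 and MSTRG.1384, at 115 and 90.1 FPKM and 97.1 and 136 FPKM at day 5. At day 13 they read 3.17 and 1.51 FPKM and 5.09 and 0.414 FPKM (-4.99 ± 0.27 and -5.30 ± 0.54, adjusted p = 2.36e-06 and 9.64e-05). Probable chitinase 3 MSTRG.10092, of a family that cuts chitin, went from 148 and 136 FPKM to 6.63 and 0.900 FPKM. Epidermis makes cuticle and is not fat body. Summed cuticle and chitin FPKM was 12720 and 10430 at day 5 and 2205 and 2269 at day 13, and in bulk tissue fewer cells of a type and less RNA per cell cannot be told apart.

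Muscle markers included many that fell. Of 30 tested muscle markers (43 matched), 14 fell and none rose, with a median log2 change of -1.21, and the summed level was 18310 and 18210 FPKM at day 5 and 7763 and 6450 FPKM at day 13. Actin-3 MSTRG.8885 read 4168 and 4202 FPKM and then 1016 and 880.5 FPKM (-2.14 ± 0.31, adjusted p = 0.000875). Troponin I MSTRG.5041 and myosin light chain alkali MSTRG.2002, parts of the contractile filaments, had log2 changes of -1.62 and -1.56. Without the fat body libraries in turn, 10, 9, 10 and 7 muscle markers fell.

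Flight muscle genes fell furthest but rested on day 5 replicate 2. Actin 88F MSTRG.8611 read 19.0 and 134 FPKM at day 5 and 0.354 and 0.325 FPKM at day 13 (-5.28 ± 1.24, adjusted p = 0.0163), and flightin MSTRG.1043 read 17.0 and 89.1 FPKM and then 0.555 and 0.666 FPKM (-4.65 ± 1.15, adjusted p = 0.0208). Without day 5 replicate 2 the changes were -3.90 (adjusted p = 0.128) and -3.49 (adjusted p = 0.153). Both calls were also lost without either day 13 library. The part that adhering muscle or epidermis has in the other changes was not tested.

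Some genes of protein synthesis and energy supply fell by small amounts. Of 55 tested cytosolic ribosomal proteins 22 fell and none rose, with a median log2 change of -0.70; 60S ribosomal protein L3 MSTRG.8661 read 1326 and 1352 FPKM and then 722 and 657 FPKM. These calls depended on the fit. With median-of-ratios scaling 3 fell and the median was -0.44, with quantile normalization 24 fell and it was -0.58, and without the fat body libraries in turn 3, 4, 1 and 9 fell. The median stayed below 0 in each of these.

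Of 45 tested genes of oxidative phosphorylation, the respiratory chain and ATP synthase, 13 fell and none rose, with a median log2 change of -0.43. ATP synthase subunits alpha MSTRG.8705 and beta MSTRG.7 read 719.8 and 804 FPKM and 515 and 591 FPKM at day 5, and 440.1 and 414 FPKM and 304 and 283 FPKM at day 13. Without the fat body libraries in turn 8, 4, 7 and 7 fell, and with median-of-ratios scaling 4. The T-complex chaperonin, which folds actin and tubulin, was added as a list after values were seen. Of its 9 tested genes 8 fell, and subunit eta MSTRG.10302 read 61.6 and 62.9 FPKM and then 36.2 and 38.4 FPKM, while subunit epsilon MSTRG.8916 read 51.9 and 51.1 FPKM and then 28.9 and 29.6 FPKM. Without the fat body libraries in turn 5, 3, 5 and 4 fell, and with median-of-ratios scaling 3. Of 23 tested proteasome genes 3 fell, and of 45 mitochondrial ribosomal proteins 4 fell, shares near the 10.4% of all tested genes that fell.

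**Figure D3:**
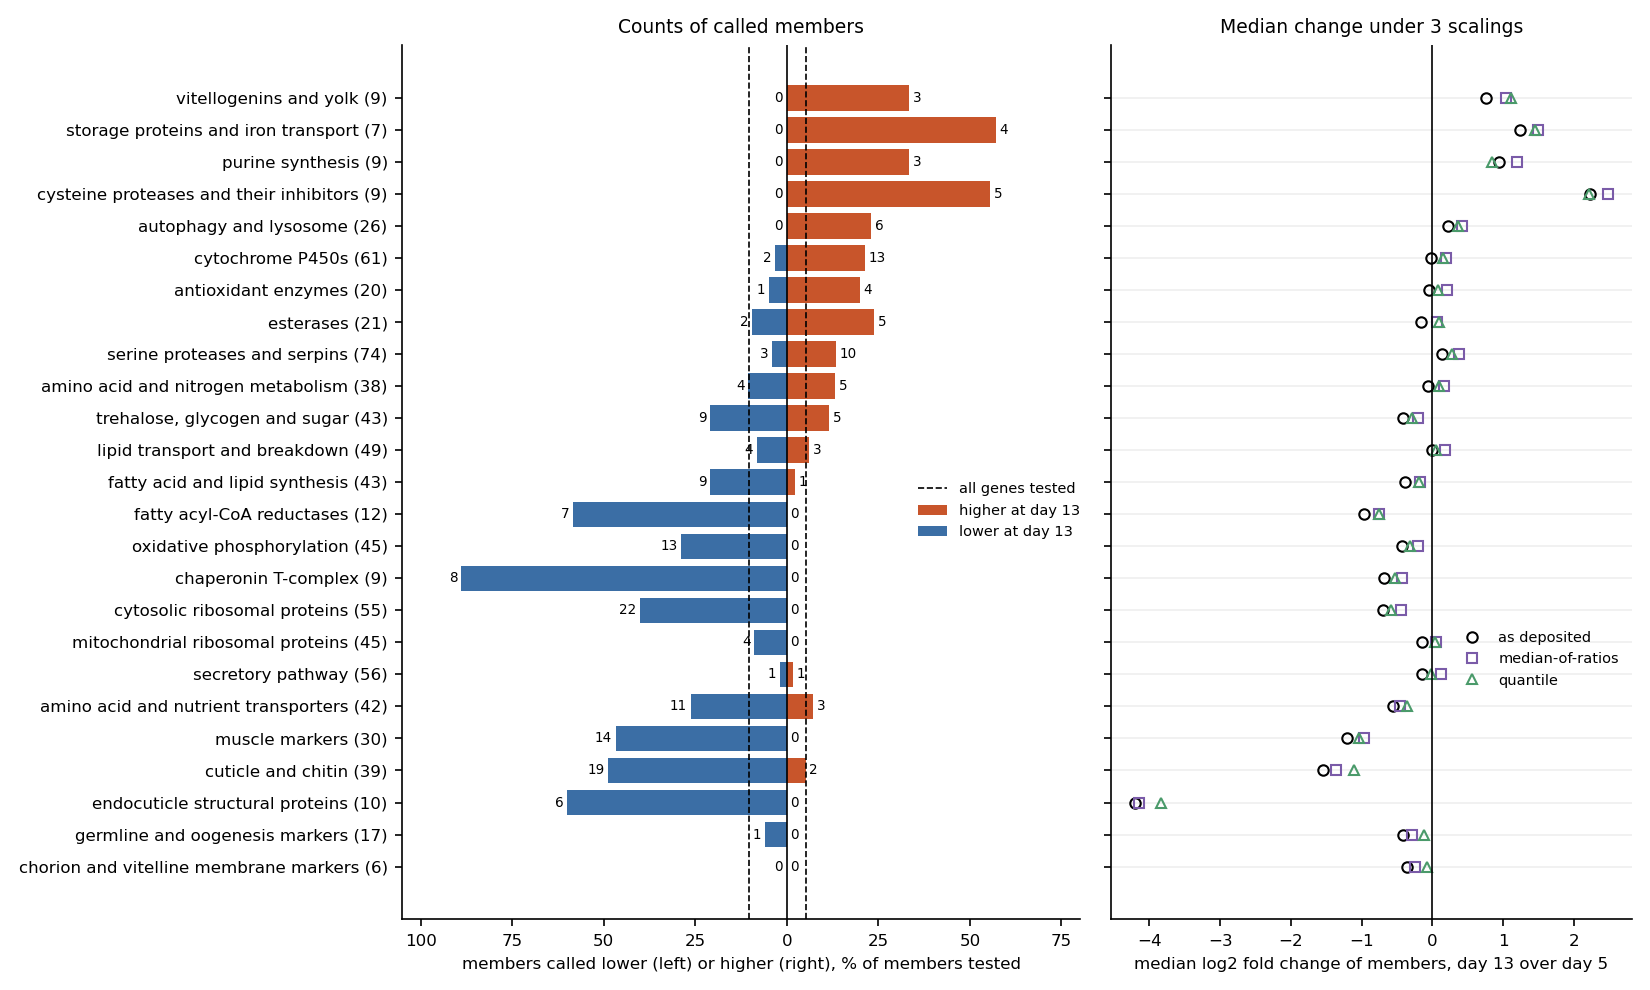
Left, share of the tested genes of each of 25 gene lists that were higher or lower at day 13, in percent, with dashed lines at the shares over all tested genes, 5.17% and 10.4%. Right, the median log2 change of each list under the values as deposited, median-of-ratios scaling and quantile normalization; the cuticle and muscle medians lie below 0 and the vitellogenin and storage protein medians above 0 under all 3.

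In each hormone list 1 gene passed the test. Krueppel homolog 1 MSTRG.5624, a transcription factor induced by juvenile hormone, read 1.37 and 1.18 FPKM at day 5 and 2.29 and 2.51 FPKM at day 13 (log2 change 0.58 ± 0.15, limma adjusted p = 0.0265), and MSTRG.4933, a mitochondrial P450 of ecdysteroid synthesis, read 7.07 and 7.00 FPKM and then 11.9 and 10.1 FPKM (0.57 ± 0.16, adjusted p = 0.0344). Both calls were lost without any 1 of the 4 fat body libraries. Of 6 tested juvenile hormone genes 1 rose, and of 6 ecdysteroid synthesis genes 1 rose. Of 18 tested ecdysone response genes 1 fell, and of 15 insulin and TOR genes 1 rose. Over all tested genes 5.17% rose and 10.4% fell. These lists are small, and a difference from those shares was not tested.

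Immune genes differed between the day 13 libraries. Summed antimicrobial peptide and lysozyme FPKM was 757 and 951 at day 5 and 352 and 3765 at day 13, so day 13 replicate 2 was the highest and replicate 1 the lowest. Of 12 tested genes of that list, 2 rose and 1 fell; the lysozyme MSTRG.5389, which cuts bacterial cell walls, read 1.41 and 2.20 FPKM and then 8.60 and 13.4 FPKM. CD109 antigen MSTRG.9915, of the family of thioester-containing proteins that mark microbes, rose from 168 and 171 FPKM to 471 and 547 FPKM (1.58 ± 0.14, adjusted p = 3.2e-05). Of 22 tested recognition and signalling genes 2 rose and 3 fell, and without day 13 replicate 1 the counts were 6 and 0.

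Marker sums set these results beside the other cells a fat body dissection could hold. Fat body markers summed to 6806 and 7750 FPKM at day 5 and 68020 and 66120 FPKM at day 13, and 8 of 21 tested rose and 2 fell. Vitellogenins made up 3072 and 3483 FPKM of this sum at day 5 and 48540 and 39100 FPKM at day 13. Transferrin MSTRG.6582, described above, is also in it, so the rise of the sum does not measure an amount of fat body cells. Trehalose-phosphate synthase MSTRG.7927 was among the 2 that fell. Gut markers summed to 1715 and 2230.0 FPKM and then 517 and 2025 FPKM, lowest in day 13 replicate 1. Hemocyte markers summed to 177 and 179 FPKM and then 251 and 270.5 FPKM, and 2 of 14 tested rose and none fell, with a median log2 change of -0.13. The 2 were scavenger receptors. Croquemort MSTRG.8383 rose from 18.0 and 18.7 FPKM to 53.5 and 55.3 FPKM, and croquemort-like MSTRG.2919 rose from 27.4 and 32.3 FPKM to 63.1 and 79.8 FPKM. The second of these lost its call without day 13 replicate 2 (1.06, adjusted p = 0.0506).

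Transcripts of germline and chorion marker genes were present at low levels in every fat body library. Whether they came from ovary or from the fat body itself was not tested. Germline markers summed to 64.7 and 78.6 FPKM at day 5 and 54.7 and 52.7 FPKM at day 13, against 1658 and 1734 FPKM in ovary at day 13. Vasa MSTRG.707, an RNA helicase of germ cells, read 11.9 and 19.3 FPKM and then 11.6 and 9.03 FPKM in fat body, and it did not pass the test (-0.53 ± 0.22, adjusted p = 0.146). Chorion markers, which ovary held at 3032 and 3518 FPKM at day 13, summed to 10.7 and 29.9 FPKM and then 15.1 and 12.6 FPKM. The median ratio of fat body to ovary over the germline markers was 9.48% and 9.55% at day 5 and 3.60% and 5.74% at day 13. The summed germline level gave lower ratios, 6.03% and 7.33% of that of ovary at day 5 and 3.23% and 3.11% at day 13. Vasa stood at 2.12% and 3.44% and then 2.34% and 1.82%. The chorion sum stood at 65.5% and 183% at day 5, when ovary held 17.1 and 15.6 FPKM, and at 0.460% and 0.384% at day 13. Subtracting the median ratio as an ovarian share therefore takes away more than the germline sum and vasa hold at both ages. It takes away more than the chorion sum holds at day 13 but less at day 5. The subtraction left 1574 genes called, 716 higher and 858 lower.

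**Figure D4:**
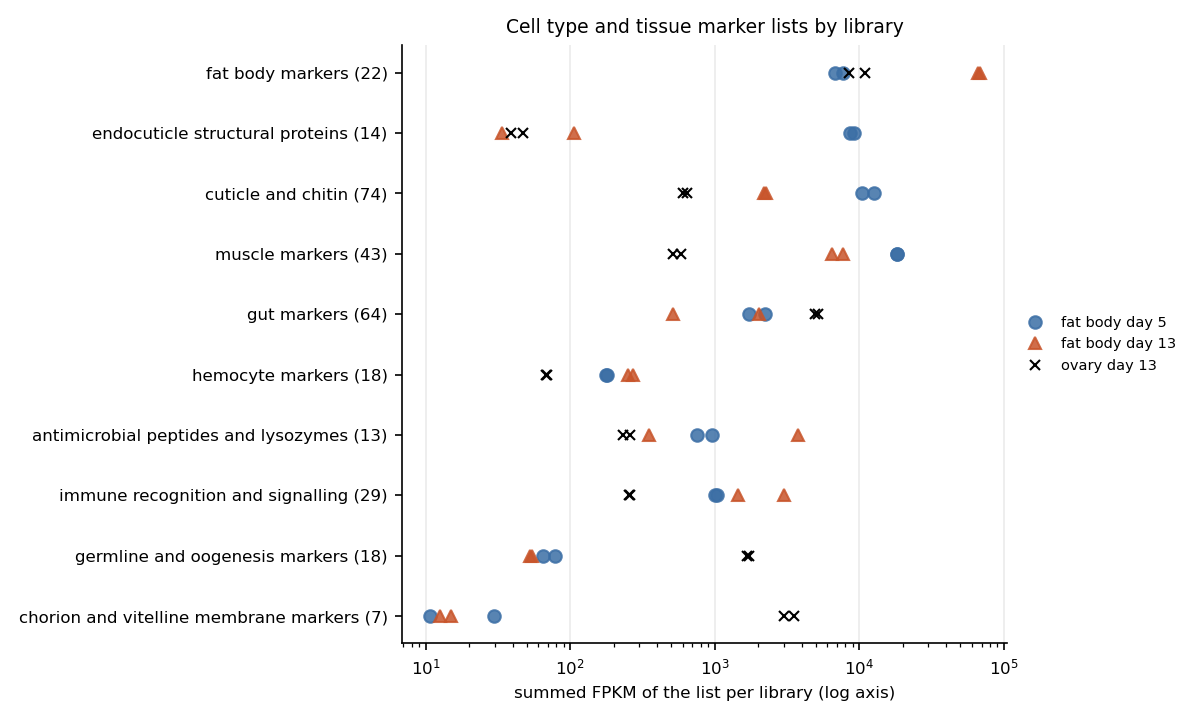
Summed FPKM on a log axis of 10 marker lists in each fat body library at day 5 and day 13 and each ovary library at day 13. Cuticle and muscle sums are lower at day 13 than at day 5. Fat body marker sums, which include vitellogenins and transferrin, are higher. Germline and chorion sums in fat body stay far below those of ovary at day 13.

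Many changes differed from those of the ovary at the same ages. The change in fat body differed from that in ovary for 403 of the 528 higher genes and 591 of the 1066 lower genes. These genes were called on the fat body change, which is a term of that difference, so the counts are a description and are not compared with all genes. Chymotrypsin inhibitor-like MSTRG.4707 fell in ovary from 178 and 127 FPKM to 2.74 and 4.002 FPKM, so the difference between the changes was 7.56 ± 0.30 (limma adjusted p = 7.24e-07). Regucalcin-like MSTRG.8988, of a family of calcium-binding proteins, rose in fat body from 83.8 and 76.8 FPKM to 321 and 278 FPKM and fell in ovary from 28.3 and 27.5 FPKM to 1.94 and 2.17 FPKM. Forkhead box L2-like MSTRG.1886, of a family of transcription factors, read 14.8 and 14.0 FPKM and then 25.1 and 23.0 FPKM in fat body, and 29.6 and 31.5 FPKM and then 5.58 and 5.91 FPKM in ovary. In both genes the 2 tissues moved in opposite directions, each beyond the spread of its libraries.

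The reverse pattern also occurred. Fatty-acid amide hydrolase 2-B-like MSTRG.2152 fell in fat body from 13.4 and 12.9 FPKM to 8.51 and 7.01 FPKM and rose in ovary from 18.9 and 17.7 FPKM to 137 and 136 FPKM, a difference of -3.53 ± 0.18 (adjusted p = 1.64e-06). Mitochondrial elongation factor Ts MSTRG.5138, which serves protein synthesis in mitochondria, fell in fat body from 12.8 and 13.1 FPKM to 1.99 and 2.35 FPKM and rose in ovary from 16.7 and 15.8 FPKM to 35.6 and 39.6 FPKM. Transporters of nutrients divided within the fat body: a sodium-dependent nutrient amino acid transporter, MSTRG.2065, rose from 9.17 and 6.08 FPKM to 21.1 and 34.1 FPKM, and monocarboxylate transporter 12 MSTRG.5400 fell from 5.94 and 6.10 FPKM to 1.31 and 0.921 FPKM. Over that list, 3 of 42 tested genes rose and 11 fell, and without the fat body libraries in turn 4, 6, 5 and 6 fell.

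Several muscle genes fell by more in ovary than in fat body. Actin-3 MSTRG.8885 went from 1022 and 849.7 FPKM to 50.3 and 38.9 FPKM in ovary, and the change in fat body minus that in ovary was 2.22 ± 0.43 (adjusted p = 0.00254). Of the 30 muscle markers, 18 had a more positive change in fat body and 5 a more negative one, where 18.5% and 18.4% of all tested genes did. Of the 39 cuticle and chitin genes the counts were 5 and 17. For cuticle protein 16.5 MSTRG.6578 the difference was -5.07 (adjusted p = 3.37e-06).

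**Figure D5:**
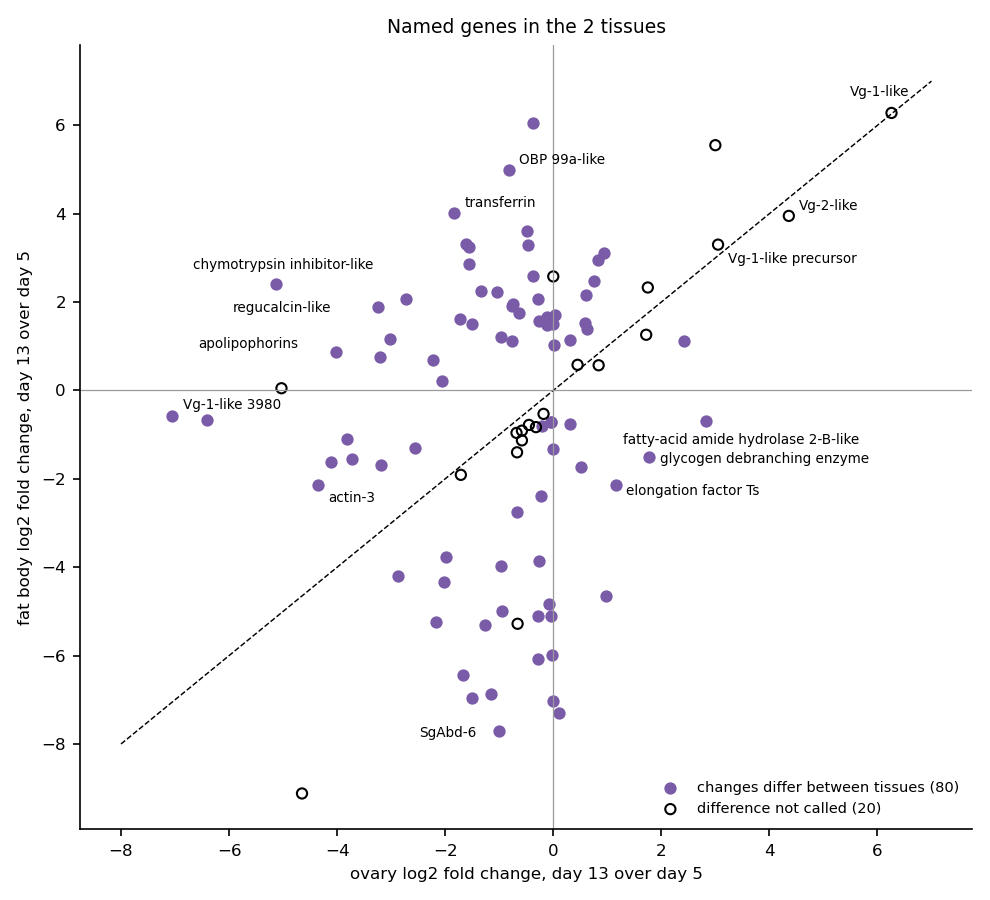
Log2 change from day 5 to day 13 of the 100 named genes in ovary (horizontal axis) and fat body (vertical axis). Filled coloured circles mark the 80 whose changes differed between the tissues, and open black circles mark the other 20. Cuticle genes lie far below the diagonal, transferrin and chymotrypsin inhibitor-like lie above it, and the 3 rising vitellogenins lie near it.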

How the data were processed

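Total RNA was taken with Trizol and made into Illumina libraries, per the labels' protocols. The authors deposited FPKM for 13759 genes, 1 column per library. Per the submitters' processing notes, HISAT2 2.0, StringTie 1.3.0 and Bowtie 0.12.2 were used, with roles not given; the build they name is one of mouse, and the fly assembly is not given in the sources used here. Total read counts are not given, so no counting interval is printed. Relative depth was guessed from the ratio of values under 1 FPKM that recurred most often. For the other 3 fat body libraries of these ages that ratio to day 5 replicate 1 was 0.997 to 1.044. It recurred in only 16 to 29 of 2190 to 2492 genes, which does not establish the depth. Gene names are the products that the deposited table lists (for 10449 genes; 3310 have none), as best matches that were not checked.

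Log2 of FPKM plus 1 was tested with limma 3.58.1 (R 4.3.3; trend and robust moderation) over all 16 libraries in 8 groups, so the groups share 1 estimate of spread, for the 10213 genes whose mean reached 1 FPKM in any group. A gene was called where its Benjamini-Hochberg adjusted p was below 0.05, and log2 changes understate the change of low genes. Differences from ovary were tested as an interaction. The script was tested on simulated data. Tables and plots used Python 3.11.15, pandas 2.3.3, numpy 2.4.6 and matplotlib 3.10.9.

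The members and the 37 gene lists, made from patterns in product names, were chosen with earlier results of these data known, and 6 lists were added after values were seen. Named genes were, first, the 15 with the largest change in each direction among called genes with at least 10 FPKM in the higher group, an informative product and ages that did not overlap. The rule then took up to 3 called genes with the smallest p per list, the vitellogenins, the 10 most abundant fat body markers and 5 genes per direction with the smallest p between tissues. The text gives 83 of these and 17 genes chosen after their values were seen, narrowed after the data were seen in favour of stable calls. It also gives the fat body markers MSTRG.332 and MSTRG.10985 and, chosen after values were seen, gene 35186. The counts over named genes leave these out. The 17 are MSTRG.3354, MSTRG.1144, MSTRG.749, MSTRG.8122, MSTRG.6452, MSTRG.2249, MSTRG.7424, MSTRG.9932, MSTRG.4695, MSTRG.10092, MSTRG.1383, MSTRG.1043, MSTRG.707, MSTRG.5580, MSTRG.7807, MSTRG.9931 and MSTRG.3403.

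Alternatives were a filter at 5 FPKM or none, a pseudocount of 0.1, median-of-ratios and quantile scaling, fits to fewer groups, no variance trend, a replicate block, an added 2-fold threshold, subtraction of an ovarian share and each library of both ages left out.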

Additional observations from a re-analysis of the deposited data

Results flagged for a closer look

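For 80 of the 100 named genes the log2 change from day 5 to day 13 differed between fat body and ovary, by limma's interaction at an adjusted p of at most 0.0357. The values below are the change in fat body minus the change in ovary. The difference was positive for 48 genes and negative for 32, among them genes that the rule chose for this difference. Of the named genes, 92 were called on the fat body change, which is a term of this difference. The counts therefore describe the selection and are no result about the tissues. Over all tested genes 36.9% differed, 18.5% with a positive and 18.4% with a negative difference.

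Among yolk, iron and lipid carriers it was 2.27 for vitellogenin-3-like MSTRG.3977, 3.96 for vitellogenin-3-like MSTRG.3978, 5.73 for vitellogenin-1-like MSTRG.3979 and 6.48 for vitellogenin-1-like MSTRG.3980. In these 4 the ovary fell. It was 5.83 and 3.01 for the transferrins MSTRG.6582 and MSTRG.4096, 1.51 for larval serum protein 2, 4.90 for apolipophorins and 2.12 for the NPC2 homolog. Odorant-binding protein 99a-like stood at 5.80 and odorant-binding protein 99a at -1.78, and takeout-like MSTRG.2372 and MSTRG.2374 stood at -2.16 and -3.01.

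In amino acid, purine and sugar metabolism it was 4.10 for phosphoenolpyruvate carboxykinase, 2.20 for 4-hydroxyphenylpyruvate dioxygenase, 1.00 for aspartate aminotransferase and 0.77 for ornithine aminotransferase. Purine genes MSTRG.5291, MSTRG.5292 and MSTRG.5502 gave 1.57, 1.71 and 3.33. Trehalose-phosphate synthase gave 2.73, glycogen debranching enzyme -3.28 and Tret1 MSTRG.5601 2.68. In lipid synthesis, acetyl-CoA carboxylase gave -1.07 and malic enzyme -0.66, and fatty acyl-CoA reductases MSTRG.558, MSTRG.3189 and MSTRG.5671 gave 1.24, 1.49 and -1.32.

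Lysosomal and protease genes were mostly positive: 4.42 and 1.79 for cathepsin L1 MSTRG.6453 and MSTRG.6452, 1.58 for lysosomal aspartic protease, 0.84 for lysosomal alpha-mannosidase and 2.38 for lysosome membrane protein 2. Sarcocystatin-A-like MSTRG.5633 gave 3.27, CTLA-2-alpha 3.76, chymotrypsin inhibitor-like 7.56 and the easter-like protease 4.19, while serpin B13 gave -3.59. The immune and scavenger genes CD109 antigen, lysozyme, croquemort and croquemort-like gave 1.85, 2.38, 0.93 and 2.18. Among detoxification genes, venom carboxylesterase-6 gave 4.8, and P450s 309a1, 311a1, 6a9-like and 4e1 gave 2.96, 2.70, 1.89 and -2.06. Peroxiredoxins MSTRG.8359 and MSTRG.8360 gave 4.81 and 3.58, and superoxide dismutase -1.30, as it rose in both tissues and by more in ovary.

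The named cuticle genes, many chosen as the largest falls, were negative: -6.70 for SgAbd-6, -7.41 for pupal cuticle protein MSTRG.1623, -5.72 for SgAbd-2, -5.47 for ABD-4 and -1.34 for SgAbd-9. Cuticle proteins 7, 1, 8 and 16.5 gave -4.78, -5.79, -4.76 and -5.07, adult cuticle protein 1 gave -4.83 and pupal cuticle protein G1A-like -5.95. Pro-resilin gave -2.32, chitinase 3 -3.06, and both glutamine--fructose-6-phosphate aminotransferases -4.05. Flightin gave -5.63, whereas actin-3, troponin I and myosin light chain alkali gave 2.22, 2.50 and 2.18. T-complex subunits epsilon and eta gave -0.60 and -0.67. The rest were regucalcin-like at 5.12, forkhead box L2-like at 2.92, fatty-acid amide hydrolase 2-B-like at -3.53, elongation factor Ts at -3.30, amino acid transporter MSTRG.2065 at 1.67 and monocarboxylate transporter 12 at -2.25. The genes without a product, MSTRG.5580, MSTRG.7807 and MSTRG.9931, gave 6.43, 4.93 and -7.03.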

How the results depend on the processing

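Each library of both ages was left out in turn. Called genes then numbered 907 to 1468 against 1594, those higher 299 to 489 against 528, those lower 608 to 979 against 1066, and those differing from ovary 3099 to 3311 against 3772. A fit to only the 8 fat body libraries called 1038 genes, 680 of them lower. Adding a 2-fold threshold to the test left 272 called, 64 higher and 208 lower, and 1094 differing from ovary. The higher count became 1088 with median-of-ratios scaling and 819 with quantile normalization. With the ovarian share subtracted 716 were higher and 858 lower. A pseudocount of 0.1, either filter, fits without day 9 or to only the groups compared, and no variance trend left the counts within 1.5 times.

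Replicate numbers did not pair the libraries: deviations of same-numbered libraries correlated at 0.07 between the ages and from -0.15 to 0.15 over all pairs of groups. With a replicate block 1481 genes were called, 488 higher and 993 lower, and with a block within tissue 1337.

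Named genes include the largest changes and were narrowed in favour of stable calls, so their counts do not stand for all called genes. Of all 1594 called genes, 272 passed the 2-fold test. Of 92 called named genes, 42 kept their call in all 21 settings, and 45 passed the 2-fold test. Changes of sign were seen in vitellogenin genes alone, of which none was called as reported: with the ovarian share subtracted, MSTRG.3979 at 1.04 and MSTRG.3980 at 6.79, both by construction, since the share exceeds their day 5 levels and sets them to 0; MSTRG.3978 at -0.44 without day 5 replicate 1 (range -0.44 to 1.96 over libraries left out); and MSTRG.3974 at -0.09 without day 5 replicate 2 and -0.27 without day 13 replicate 1 (range -0.27 to 0.38). Total reads per library are not given, so how far depth limits genes near 0 FPKM cannot be stated; 2 libraries per age limit all calls.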

Other observations

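Further lists gave the counts below, where 5.17% of all tested genes rose and 10.4% fell. Differences from those shares were not tested. Of 29 tested gut markers (64 matched), 3 rose and none fell, and without day 13 replicate 2 the counts were 3 and 3. Of 39 tested heat shock proteins and chaperones 10 fell and none rose, 8 of the 10 being T-complex subunits; with median-of-ratios scaling 6 rose and 3 fell. Of 28 tested cell cycle and DNA replication genes 2 fell in fat body, and 17 had a more negative change there than in ovary, against 18.4% of all tested genes. The summed level of that list rose in ovary from 917 and 973 FPKM to 2568 and 2449 FPKM. In fat body the sum read 66.3 and 79.8 FPKM and then 62.1 and 66.6 FPKM. Of 5 lipocalins, a list added after values were seen, 1 rose and 1 fell, and of 28 glutathione and glucuronyl transferases 2 rose and 1 fell. Of 18 tested neuron markers 1 rose and 1 fell, and of 6 clock genes 1 fell.

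Some of the largest values belonged to genes without a product name in the table. MSTRG.5580 read 164 and 114 FPKM at day 5 and 11512 and 7243 FPKM at day 13 (log2 change 6.05 ± 0.51, limma adjusted p = 3.03e-05), and in ovary its level at day 13 was 18.8 FPKM on average. MSTRG.7807 read 127 and 388 FPKM and then 1548 and 3208 FPKM (3.32 ± 0.75, adjusted p = 0.0136); its call was lost without day 5 replicate 1 (2.52) and without day 13 replicate 2 (2.79). MSTRG.9931 read 139 and 121 FPKM at day 5 and was listed at 0 in both day 13 libraries. MSTRG.3403 read 556 and 599 FPKM at day 5 and 0.0345 and 0.0367 FPKM at day 13, yet it did not pass the test (-9.12 ± 3.70, adjusted p = 0.134): the replicates of other groups differed widely, as at day 1 in fat body with 5.07 and 604 FPKM. It passed in the fit to only the groups compared (adjusted p = 0.00217) and without the day 9 libraries (adjusted p = 0.0469). These 4 genes were chosen after their values were seen.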
